A study of Mus musculus with 12 samples.

Results

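Cd163 encodes a scavenger receptor of macrophages, and its row is 1 of the 24552 gene symbols counted in mouse bone marrow-derived macrophages. The gene was selected on its counts in M1-like against M0 cells, which were known to be far lower in M1, so that drop is described here and not tested. Its response to the drug ISRIB, and whether the drop differed with ISRIB, were tested.

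RNA was sequenced from macrophages grown from mouse bone marrow for 6 days with M-CSF, a macrophage growth factor, at 10 ng/ml. All cells were first held for 1 h in vehicle (DMSO) or in 50 nM ISRIB, a small molecule that activates the translation factor eIF2B and so blocks the integrated stress response. M1-like cells then received 10 ng/ml LPS, a bacterial cell wall product, together with 25 ng/ml IFN-γ for 16 h, with vehicle or ISRIB kept in the medium. The 4 groups were vehicle M0, ISRIB M0, vehicle M1 and ISRIB M1, each with 3 samples that the labels call biological replicates. Every group shared the growth in M-CSF, and no group was free of both DMSO and ISRIB. The labels do not say what M0 cells received while the others were stimulated, nor whether replicates came from separate animals, so the p-values measure the spread between these samples only. Each sample is RNA from a whole culture, in which fewer cells of a type and less RNA per cell cannot be told apart.

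The CD163 protein is a membrane receptor built from scavenger receptor cysteine-rich (SRCR) domains. It takes up haemoglobin bound to haptoglobin, and the haem that follows is broken down by haem oxygenase 1 while the iron is stored in ferritin or exported by ferroportin. In macrophages the gene is widely used as a marker of resident and alternatively activated cells; glucocorticoids and interleukin-10 are known to raise it, inflammatory stimuli such as LPS and IFN-γ to lower it, and the protease ADAM17 to shed the receptor from the surface.

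In GENCODE M21 on the mouse build GRCm38 (mm10), Cd163 (ENSMUSG00000008845.9) lies on the plus strand at chr6:124304656-124330527. The gene has a pair of coding transcripts of 17 exons each, of 4404 and 4443 bases, and a shorter transcript of 6 exons with a retained intron. Its surroundings are sparse. The nearest protein-coding genes are Pex5, 66289 bases downstream, and Vmn2r27, 72800 bases upstream, which had 4 counts and 0 counts in all 12 libraries together. The nearest annotated genes upstream are the small RNA Gm25311 at 228 bases, the pseudogene Gm6308 at 6481 bases and the noncoding Gm43971 at 22064 bases, and none of these is a symbol of the count table. Downstream, 1700013D24Rik at 17071 bases and 1700027F06Rik at 32774 bases, both noncoding, had 0 counts in every library, and Gm44006 at 41635 bases is not in the table.

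The stretch before the gene is shown because the stimulus and the hormones known to act on Cd163 work through factors with known DNA motifs. It is RefSeq sequence of GRCm38.p6, plus strand, chr6:124304401-124304635, 235 bases that end before the first base annotated to Cd163, and capitals mark the motif matches.

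Cd163 upstream: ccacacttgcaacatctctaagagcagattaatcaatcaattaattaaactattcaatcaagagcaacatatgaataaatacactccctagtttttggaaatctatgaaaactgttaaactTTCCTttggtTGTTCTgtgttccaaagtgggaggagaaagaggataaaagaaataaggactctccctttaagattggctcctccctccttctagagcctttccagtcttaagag

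Motifs were searched on both strands over the 250 bases before the transcription start of the RefSeq promoter table. That start is chr6:124304651, past the printed stretch and inside Cd163 as RefSeq annotates it, from base 124304636. Positions are counted from that start and not from the end of the printed stretch. The ETS core AGGAA matched once, on the minus strand at bases -129 to -125 from the start, and 60.3% of the 32851 promoters of that table hold it. The letters AGAACA, only a part of the full glucocorticoid receptor site, also matched on the minus strand, at -119 to -114. They are held by 16.1% of promoters. These 250 bases held no STAT gamma-activated site TTCNNNGAA (in 7.02% of promoters), interferon-stimulated response element core (2.98%), NF-κB motif (1.41%), C/EBP motif TTGCNNAA (9.56%), PU.1 motif GAGGAAGT, which contains AGGAA (2.44%), or TATA box TATAAA (12.4%). GC content was 36.8%, against a median of 52.4% over all promoters, and 7.32% of promoters were at or below it. A match is a description of letters and not a measured site.

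Total counts per library were 439976 to 514037, so 1 count was worth 1.79 to 2.57 CPM (counts per 1e6, scaled between libraries by TMM). The floor for a level of 0 was set at 3 counts, or 0.000584% to 0.000682% of a library. All 12 macrophage markers had counts in at least 1 library, summing to 214 to 615 per library, though at low levels. Fcgr1, Mertk, Spi1 and Aif1 were at 0 in at least 1 library. Lyz2 (lysozyme) averaged 153 counts, Mpeg1 119 and Csf1r (the M-CSF receptor, with Hmgxb3 on the opposite strand) 34. All 7 fibroblast markers were at 0 in every library; sums over the T or NK cell, B cell and neutrophil markers were at most 4 counts, and over erythroid markers at most 16. The 7 dendritic cell markers summed to 6 to 19 counts in M0 and 325 to 434 in M1, and nearly all of these were Xcr1, a chemokine receptor with 6 to 434 counts. Flt3, Zbtb46 and Cd209a were at 0 in every library, and Itgax, Ccr7 and Siglech averaged at most 1.25 counts, so Xcr1 alone was high in M1, where Cd163 was low.

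The strand that was counted sets what a Cd163 count can mean. The labels call the libraries strand-specific, and the strand setting of the counting is not given in the sources used here. Of the 24030 symbols matched to the annotation, 5795 have an exon overlapping an opposite-strand exon. In every library these held 91.2% to 93.1% of the counts that could be matched. Cd163 is among the 18235 symbols with no such overlap in GENCODE M21, where it ranked 2nd in M0 by mean count, with 1703 counts, and held 4.91% of that set's M0 counts. RefSeq lists a noncoding gene, Gm52877, on the minus strand at chr6:124312044-124321615, inside Cd163 and across its exons 6 to 11, and Gm52877 is not analysed here. Without the strand setting, it is not known from which strand the reads counted as Cd163 came. The values that follow are thus counts assigned to Cd163. The same holds for every other gene named here, and which strand was counted was not tested.

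In vehicle M0 the Cd163 counts were 1501, 1488 and 1496 in replicates 1, 2 and 3. In ISRIB M0 they were 1632, 1761 and 2342. The lowest count in M0, 1488, was thus in a vehicle library and the highest, 2342, in an ISRIB library. In vehicle M1 the counts were 1, 1 and 8, and in ISRIB M1 they were 10, 3 and 11. Every M0 library lay far above every M1 library with either drug, while vehicle M1 replicate 3 lay above ISRIB M1 replicate 2. The exact Poisson 95% interval was 0.0253 to 5.57 for 1 count, 0.619 to 8.77 for 3, 3.45 to 15.8 for 8, 4.80 to 18.4 for 10 and 5.49 to 19.7 for 11. Such intervals speak at most of counting error, and they take each count as an independent event. The libraries have no molecular identifiers, and of all deposited values from 1 to 10, 66.3% were even, with 12645 values of 2 and 6991 of 1. Low counts may thus not be independent, and the intervals would then be too narrow even for counting error. The cause of the even values was not tested. The M1 counts of Cd163 thus lie at or near the limit of what libraries of this depth can measure.

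**Figure D1:**
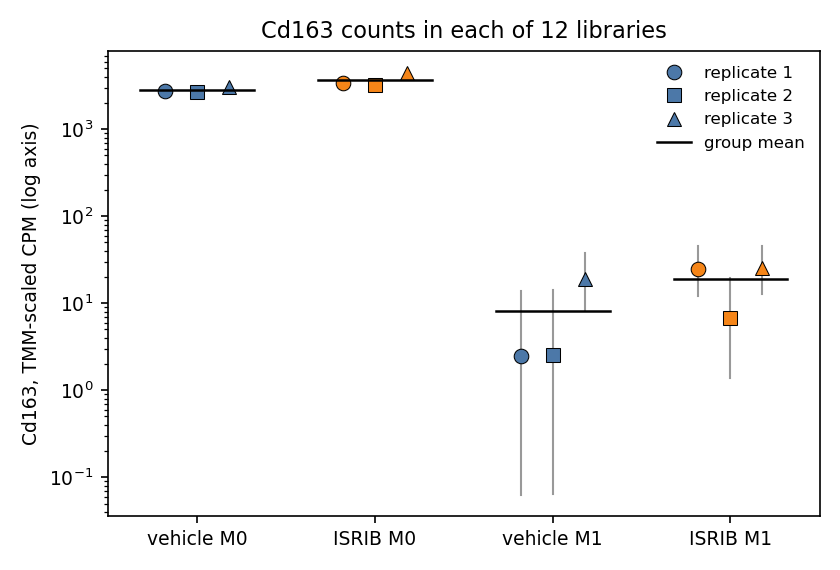
TMM-scaled CPM of Cd163 on a log axis for each library of the 4 groups, with points for replicates, grey bars for exact Poisson 95% counting intervals and lines for group means. The 6 M0 libraries lie between 2663 and 4386 CPM and the 6 M1 libraries between 2.5 and 25.8 CPM, where points rest on 1 to 11 counts.

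On the TMM scale vehicle M0 libraries held 2781, 2663 and 3031 CPM, with a mean of 2825 ± 188 (SD, n = 3). ISRIB M0 libraries held 3394, 3204 and 4386 CPM, with a mean of 3661 ± 635 (SD, n = 3), so every ISRIB M0 library was above every vehicle M0 library. This order held for 5.56% of the 2356 genes tested, or 131 genes, and the same order in M1, which Cd163 did not show, for 5.39%. Vehicle M1 libraries held 2.5, 2.57 and 19.2 CPM (mean 8.10 ± 9.64, SD, n = 3), and ISRIB M1 libraries 25.0, 6.73 and 25.8 CPM (mean 19.2 ± 10.8). The relative spread was thus small in vehicle M0, with a coefficient of variation of 6.66%, and exceeded the mean in vehicle M1, at 119%. The order of the means was ISRIB M0, vehicle M0, ISRIB M1, vehicle M1, and ISRIB M1 and vehicle M1 overlapped. The authors' own log2 values, computed with their size factors, averaged 10.35 ± 0.12 in vehicle M0, 10.70 ± 0.23 in ISRIB M0, 1.89 ± 1.27 in vehicle M1 and 3.18 ± 0.96 in ISRIB M1 (SD, n = 3), in the same order.

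Cd163 was among the abundant symbols of M0 cells. It ranked 56th, 54th and 49th in the vehicle M0 libraries and 43rd, 43rd and 33rd in ISRIB M0, and its share of the library was 0.292% to 0.327% and 0.355% to 0.478%. In M1 the rank was between 1657th and 4611th, and the share between 0.000214% and 0.00231%. Per kilobase of each symbol's own annotated exons, Cd163 stood at 643 CPM in M0, 93rd of 24030 symbols, and at 2.20 CPM in M1, 2808th. This scale sets genes side by side only where the counts came from those exons, and the strand counted is not known.

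Of its M0 level, 0.287% ± 0.341 (SD, n = 3, against the M0 mean) was left in vehicle M1, with 0.0886%, 0.0910% and 0.681% in replicates 1, 2 and 3. In ISRIB M1 0.523% ± 0.294 of the ISRIB M0 level was left, with 0.683%, 0.184% and 0.704%. Each group thus had libraries near 0.7% and libraries well under it, 1 of 3 near that value with vehicle and 2 of 3 with ISRIB. The low libraries were at or under the floor of 3 counts. Vehicle M1 replicates 1 and 2 had 1 count each, and ISRIB M1 replicate 2 had 3, so their percentages are not measured levels. As ratios of group means Cd163 was 349-fold lower in M1 than in M0 with vehicle and 191-fold lower with ISRIB. The group sums behind these ratios were 4485 and 5735 counts in M0, and 10 (Poisson 95% interval 4.80 to 18.4) and 24 (15.4 to 35.7) in M1. These intervals carry the same limit as those of single libraries.

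The model across all genes put the log2 fold change, M1 against M0, at -8.37 ± 0.30 (SE) with vehicle and -7.58 ± 0.27 with ISRIB. The SE depended on the method: DESeq2 gave 0.48 and limma-voom 0.89 with vehicle, and 0.33 and 0.66 with ISRIB. Both changes are given without a test, since the gene was chosen for this drop. Of the 2356 genes, 44.8% passed an adjusted p under 0.05 in that comparison with vehicle and 44.8% with ISRIB, and in 20.5% and 20.9% M1 was lower. All M0 libraries lay above all M1 libraries for 25% of genes with vehicle and 26.4% with ISRIB. By fold between group means, with M1 levels under the floor set to it, Cd163 had the largest ratio of the 2356 genes with either drug. For a gene under the floor in M1 that ratio is a lower bound, so the depth does not show whether such a gene was lowered more than Cd163. By fitted log2 fold change Cd163 ranked 2nd with vehicle and 9th with ISRIB, and Gm9920 (opposite Deptor), which ranked above it with vehicle, had 0 counts in vehicle M1 and was at least 22.3-fold lower. Vehicle M1 replicate 3 held 8 of that group's 10 counts, and without it the fitted change with vehicle was -9.98.

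**Figure D2:**
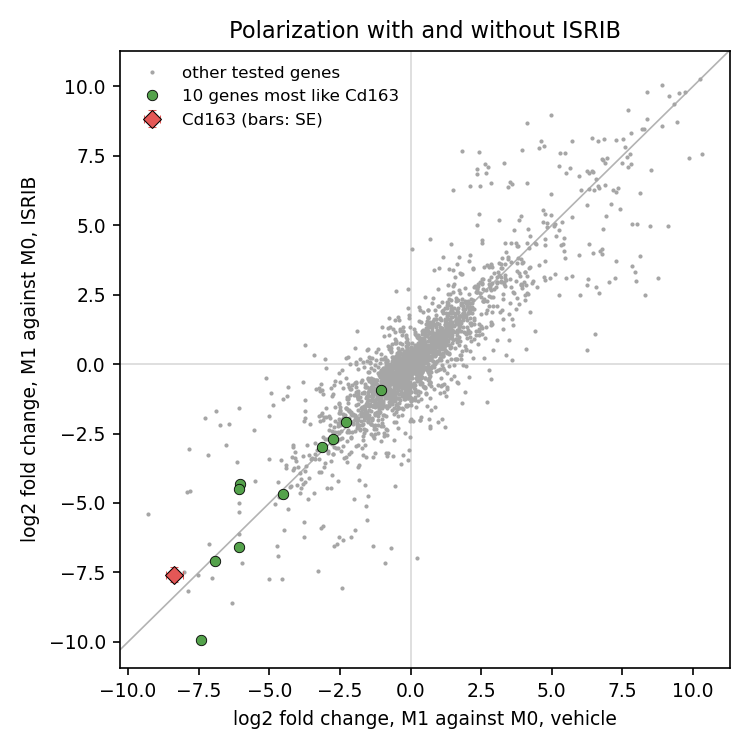
Log2 fold change of M1 against M0 with vehicle (horizontal axis) and with ISRIB (vertical axis), edgeR estimates, for the 2356 tested genes, with Cd163 as a red diamond with SE bars and the 10 genes most like it, described further on, in green. Cd163 lies toward the lower left end, at -8.37 and -7.58.

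ISRIB against vehicle was compared first in M1 cells, to ask whether the drug altered the low Cd163 level left there. Cd163 was 1.16 ± 0.58 (SE) higher on the log2 scale with ISRIB, a 2.24-fold ratio with a 95% interval from 0.982 to 5.10. The groups overlapped. edgeR's quasi-likelihood test gave an unadjusted p of 0.0548 and a Benjamini-Hochberg adjusted p of 0.831, so the difference did not pass, and an interval reaching 5.10 does not show that the drugs act alike. That fit shares the spread of all 4 groups, and Cd163 varied more in M1. With only the M1 groups the SE was 1.02 (edgeR's quasi-likelihood test, unadjusted p = 0.252), and by limma-voom 1.10 (unadjusted p = 0.225). It was 0.56 by DESeq2's Wald test (unadjusted p = 0.0322) and 0.47 by limma on the deposited log2 values (unadjusted p = 0.0123). No adjusted p passed in these settings. In that contrast 0% of genes passed, by edgeR and also by DESeq2 and limma-voom, and 5.69%, or 134 genes, had an unadjusted p under 0.05. The exact two-sided permutation test over samples gave p = 0.2, where 3 against 3 allows no less than 0.1. Without vehicle M1 replicate 3 the difference was 2.77, and without vehicle M1 replicate 1 or 2 it was 0.75 or 0.76 (edgeR's quasi-likelihood test, adjusted p 0.590 to 0.998 on leaving out any library).

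In M0 cells Cd163 was 0.37 ± 0.16 (SE) higher with ISRIB on the log2 scale, which is 1.30-fold with a 95% interval of 1.03 to 1.63. Higher values were seen in 3 of 3 ISRIB libraries than in any vehicle library. In edgeR's quasi-likelihood test the unadjusted p was 0.0291 and the Benjamini-Hochberg adjusted p 0.711, so this difference did not pass either. There 0% of genes passed in edgeR, 3 genes passed in DESeq2 and 1 in limma-voom, and 6.07%, or 143 genes, had an unadjusted p under 0.05 in edgeR. The exact two-sided permutation test gave p = 0.1, the smallest that 3 against 3 allows. ISRIB M0 replicate 3 was the highest of the libraries, and without it the difference was 0.24, more than 1.5 times smaller.

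The difference between these effects asks whether the drop of Cd163 in M1 differed with ISRIB. It was 0.79 ± 0.60 (SE) on the log2 scale, the drop being the shallower with ISRIB, with a 95% interval from -0.45 to 2.02, that is from 0.735-fold to 4.06-fold. The unadjusted p was 0.200 and the Benjamini-Hochberg adjusted p 0.847 in edgeR's quasi-likelihood test, and the exact two-sided permutation test over samples gave p = 0.44. No gene passed there by edgeR, DESeq2 or limma-voom, and 167 genes (7.09%) had an unadjusted p under 0.05 in edgeR. For Cd163 the SE of the difference was 1.11 by limma-voom and 0.58 by DESeq2. These data thus hold a drop of Cd163 with either drug, and a difference between the drops that did not pass with 3 libraries per group. Single M1 libraries moved it in both directions: it was 2.40 without vehicle M1 replicate 3 and 1.21 without ISRIB M1 replicate 2, but 0.37 and 0.39 without vehicle M1 replicates 1 and 2 and 0.50 without ISRIB M1 replicate 3 (edgeR's quasi-likelihood test, adjusted p 0.463 to 0.965 on leaving out any library).

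**Figure D3:**
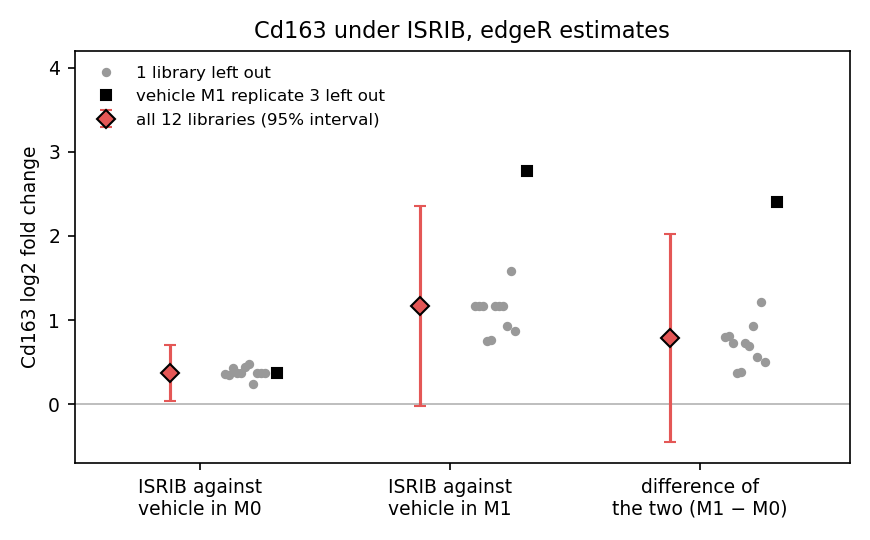
Log2 fold change of Cd163 with ISRIB against vehicle in M0, in M1, and the difference between them, as diamonds with 95% intervals for all 12 libraries, and as grey points for each fit with 1 library left out. The difference is 0.79 with all libraries and 2.40 (black square) without vehicle M1 replicate 3.

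A mean effect of ISRIB over M0 and M1 together, added after the values were seen, was 0.77 ± 0.30 (SE) on the log2 scale, or 1.70-fold (95% interval 1.11 to 2.61). In edgeR's quasi-likelihood test the unadjusted p was 0.0165 and the Benjamini-Hochberg adjusted p 0.726. No gene passed in that contrast, and 6.2%, or 146 genes, had an unadjusted p under 0.05. The exact two-sided permutation test within each state gave p = 0.105. For Cd163 the SE was 0.55 by limma-voom (unadjusted p = 0.130) and 0.29 by DESeq2's Wald test (unadjusted p = 0.0065). Cd163 was higher with ISRIB in both states by the group means, by an amount that did not pass the adjustment over genes. Without vehicle M1 replicate 3 the mean effect was 1.57 (edgeR's quasi-likelihood test, adjusted p = 0.273).

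Genes whose level followed that of Cd163 over the 12 libraries were sought among the 860 genes that averaged 50 counts or more in M0. All libraries share the M0 and M1 split, so a high correlation of log2 CPM is common for any gene low in M1, and 165 genes had a Pearson r above 0.9. Prune2, which encodes a BCH domain protein, was the most like Cd163, with r = 0.993 and Spearman's rho = 0.963. Its counts were 412, 249 and 345 in vehicle M0 and 606, 515 and 604 in ISRIB M0. In M1 they were 0, 0 and 6 with vehicle and 6, 2 and 2 with ISRIB. Prune2 thus had its highest vehicle M1 count in replicate 3, as Cd163 did, and no opposite-strand exon overlaps it in GENCODE M21. The ISRIB M0 libraries of Prune2 all lay above its vehicle M0 libraries, an order that held in CPM for 5.56% of the 2356 genes tested. Prune2 was chosen by likeness over these same libraries, which favours such shared details. Its log2 fold change, M1 against M0, was -6.92 ± 0.44 (SE) with vehicle and -7.09 ± 0.39 with ISRIB. Like that of Cd163 it is given without a test, as are those of the other genes found by likeness, since the measure of likeness fixes a lower level in M1.

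The other genes with the highest r were Card14 (0.992), Gm15471 (0.991), Focad (0.991), Nt5dc2 (0.986) and Gm15441 (0.985), and the 7th gene also had 0.985. Every one of these shares exon sequence with a gene on the opposite strand, namely Sgsh, Dclre1b, Hacd4, Stab1 and Txnip, in that order. They shared the lower M1 level with Cd163, by smaller amounts, but not in each case its order in M0. Mean CPM was lower in ISRIB M0 than in vehicle M0 for Gm15441 (38986 against 46469) and for Nt5dc2 (3286 against 3556), and their Spearman's rho was 0.748 and 0.797. Card14, a scaffold protein of NF-κB signalling, had 2446, 2680 and 2491 counts in vehicle M0 and 75, 59 and 118 in vehicle M1, with log2 fold changes of -4.52 ± 0.16 (SE) with vehicle and -4.69 ± 0.16 with ISRIB. The log2 fold changes with vehicle and ISRIB were -2.76 and -2.69 for Focad, -3.15 and -2.98 for Nt5dc2, -2.29 and -2.08 for Gm15441, and -1.05 and -0.94 for Gm15471. By the size of the pattern, as the root mean square difference of log2 CPM from Cd163, the nearest were Prune2 (0.740), Ccdc127 (1.24), Rnf150 (1.59), 9130019P16Rik (1.61; Chn2, Prr15 and Wipf3 lie on the opposite strand) and Nat8l (1.66). Rnf150 (opposite Gm45449) had 162, 153 and 148 counts in vehicle M0 against 0, 0 and 5 in vehicle M1. The ISRIB counts were 188, 152 and 205 in M0 against 2, 10 and 10 in M1. Ccdc127 (opposite Lrrc14b) was at least 44.1-fold lower in M1 with vehicle and at least 36.4-fold with ISRIB, and Nat8l, with no overlap, at least 25.0-fold and 35.1-fold. Of the 10 genes named by either measure, 8 have an opposite-strand overlap and only Prune2 was named by both.

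**Figure D4:**
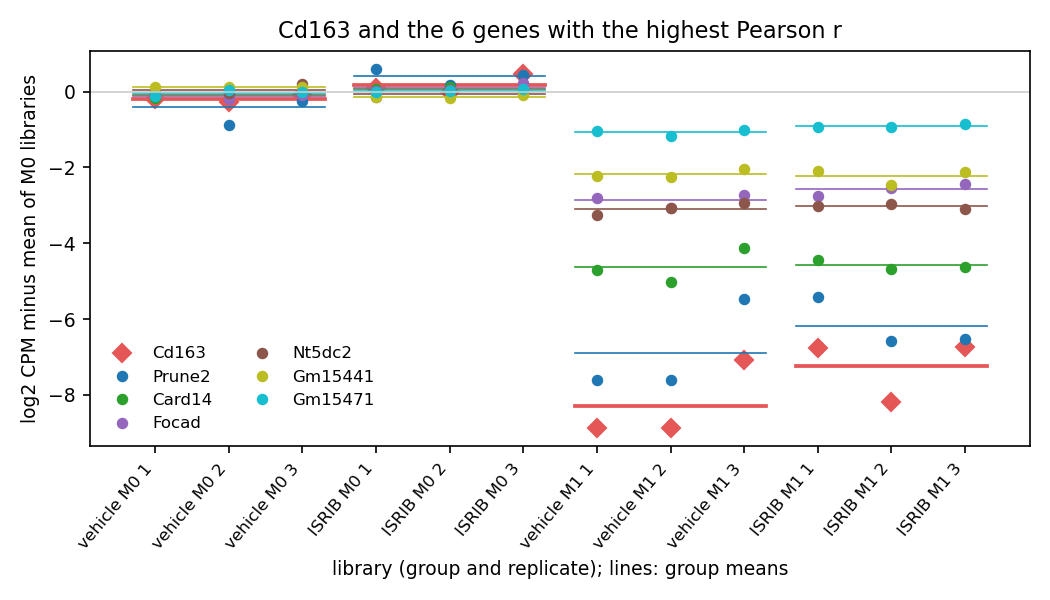
Log2 CPM minus the mean of the M0 libraries for Cd163 and the 6 genes with the highest Pearson r, by library (horizontal axis), with lines for group means. All are lower in M1 than in M0, as the choice by likeness fixes, Prune2 by an amount near that of Cd163 and Gm15471 by about 1 on this scale.

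The other genes of the CD163 pathway were taken from 6 lists chosen with earlier results of these data known, holding 146 genes besides Cd163, of which 144 are in the table. Of these, 33 were at 0 in all libraries and 37 had enough counts to be tested. With vehicle 10 of the 37 were higher in M1, 10 lower and 17 not called (adjusted p under 0.05, Benjamini-Hochberg over all genes in edgeR's quasi-likelihood test, as for all calls that follow). With ISRIB the numbers were 10, 7 and 20. Calls were thus made in both directions, near the share of all genes, 44.8% with either drug. None of the 37 was called for ISRIB against vehicle in M1 or M0, or for the difference, and 4, 1 and 0 of them had an unadjusted p under 0.05 there. A total of 17 of the 37 have an opposite-strand overlap.

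Of the 25 genes of haemoglobin uptake and iron handling 9 were tested. With vehicle 4 were higher in M1, 2 lower and 3 not called, and with ISRIB 3, 1 and 5. The shares over all tested genes were 24.3% higher and 20.5% lower with vehicle, and 23.9% and 20.9% with ISRIB. The median log2 fold change of the 9 was 0.39 and 0.78, against 0.01 and -0.01 over all tested genes. Fth1, the ferritin heavy chain, held 47, 68 and 35 counts in vehicle M0, 367, 246 and 456 in vehicle M1, 23, 39 and 50 in ISRIB M0 and 262, 608 and 435 in ISRIB M1. It rose by 3.23 ± 0.27 (SE) on the log2 scale with vehicle (adjusted p = 1.77e-10) and by 3.83 ± 0.28 with ISRIB (adjusted p = 1.3e-11). Hmox1, the inducible haem oxygenase, held 0, 5 and 2 counts in vehicle M0, 32, 16 and 50 in vehicle M1, 4, 5 and 8 in ISRIB M0 and 22, 45 and 60 in ISRIB M1. It rose by 4.12 ± 0.69 (adjusted p = 2.02e-05) and 3.16 ± 0.61 (adjusted p = 0.000132). Ftl1, the ferritin light chain (opposite Gm10252), was not called, at 0.31 ± 0.30 with vehicle (adjusted p = 0.421) and 0.69 ± 0.30 with ISRIB (adjusted p = 0.0629), so the ferritin chains did not both pass. Lrp1, the receptor for haem bound to haemopexin, rose by 1.43 ± 0.33 (adjusted p = 0.00089) and 1.19 ± 0.33 (adjusted p = 0.00475). Hmox2, the constitutive haem oxygenase (opposite Cdip1), fell by 1.53 ± 0.35 (adjusted p = 0.00073) and 1.36 ± 0.34 (adjusted p = 0.00207). Slc40a1, which is ferroportin, the iron exporter, had 15, 12 and 12 counts in vehicle M0 and 0 in all vehicle M1 libraries, at least 3.28-fold lower (adjusted p = 0.00223). With ISRIB its counts were 4, 10 and 8 in M0 and 2, 0 and 0 in M1 (adjusted p = 0.0573), which did not pass. Slc11a1, a phagosomal metal transporter, was at least 5.31-fold higher with vehicle (adjusted p = 0.011) and not called with ISRIB (adjusted p = 0.0537); without vehicle M1 replicate 3 the vehicle call was lost (adjusted p = 0.0854). Haptoglobin itself (Hp) had at most 4 counts in a library and was not tested.

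In the SRCR domain family, to which CD163 belongs, 19 of 21 genes were in the table, 9 were at 0 in every library and 4 were tested. With vehicle 3 were higher in M1 and 1 was not called, and with ISRIB all 4 were higher, with medians of 1.85 and 3.43 on the log2 scale. Of all tested genes 24.3% were called higher with vehicle and 23.9% with ISRIB, and 4 genes are too few to describe the family. Marco, a scavenger receptor for bacterial ligands, had 4, 0 and 0 counts in vehicle M0, 58, 20 and 27 in vehicle M1, 2, 0 and 0 in ISRIB M0 and 68, 32 and 35 in ISRIB M1. It rose by 4.98 ± 0.82 (SE) with vehicle (adjusted p = 1.72e-05) and was at least 18.7-fold higher with ISRIB (adjusted p = 3.21e-06). Msr1, the class A scavenger receptor, had 10, 0 and 6 counts in vehicle M0 and 12, 13 and 10 in vehicle M1 (1.5 ± 0.87, adjusted p = 0.173), and 1, 5 and 0 in ISRIB M0 and 20, 16 and 18 in ISRIB M1 (3.40 ± 0.97, adjusted p = 0.00558). Lgals3bp, a secreted glycoprotein, was called with vehicle (2.20 ± 0.86, adjusted p = 0.039) and with ISRIB (3.46 ± 0.97, adjusted p = 0.00512). Its vehicle call was lost by DESeq2 and without any of 6 libraries in turn, which were vehicle M0 replicates 2 and 3, vehicle M1 replicates 1 and 3 and ISRIB M1 replicates 1 and 3 (adjusted p 0.0522 to 0.227). Loxl3, a lysyl oxidase (opposite Htra2), rose by 1.03 ± 0.13 (adjusted p = 4.24e-07) and 0.85 ± 0.13 (adjusted p = 7.26e-06). The related gene Cd163l1 had 0 counts.

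Among 28 other scavenger and phagocytic receptors 8 were tested, and 10 were at 0 in every library. With vehicle 2 were higher in M1, 2 lower and 4 not called, and with ISRIB 2, 1 and 5. The shares over all tested genes were 24.3% higher and 20.5% lower with vehicle, and 23.9% and 20.9% with ISRIB. Lrp1, which this list shares with iron handling, was 1 of the genes called higher. Cxcl16, a receptor for oxidised lipoprotein (opposite Zmynd15), rose by 0.82 ± 0.21 (SE) with vehicle (adjusted p = 0.00197). Its call with ISRIB (0.52 ± 0.21, adjusted p = 0.0442) was lost without ISRIB M0 replicate 2 or 3 and without ISRIB M1 replicate 1, 2 or 3 in turn, and under 2 other settings (adjusted p 0.0556 to 0.385 over the 7). Scarf1, a scavenger receptor for modified lipoproteins, had 26, 32 and 25 counts in vehicle M0 and 4, 10 and 0 in vehicle M1, a change of -2.12 ± 0.75 (adjusted p = 0.0239). That call was lost without vehicle M0 replicate 2 or vehicle M1 replicate 1 or 3 (adjusted p 0.0622 to 0.0938), and with ISRIB the change was -1.78 (adjusted p = 0.0596). Stab1, another receptor of resident macrophages (opposite Nt5dc2), was at -0.41 ± 0.17 with vehicle (adjusted p = 0.0472) and -0.35 with ISRIB (adjusted p = 0.0982), and 13 other settings gave an adjusted p of 0.0503 to 0.314 for the former. Of these 8 left out a library, namely vehicle M0 replicates 1 and 3, vehicle M1 replicates 1 and 2, ISRIB M0 replicates 2 and 3 and ISRIB M1 replicates 1 and 3. Clec7a, the receptor for fungal glucans, was at least 2.58-fold lower with ISRIB (adjusted p = 0.0412), a call lost without ISRIB M0 replicate 1 or 2 or ISRIB M1 replicate 2 or 3, with no low-count filter and with a replicate block (adjusted p 0.0532 to 0.125). With vehicle the calls of Lrp1 and Cxcl16 held under every setting that tested them.

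Of 32 genes of alternative activation and tissue-resident macrophages 7 were tested and 6 were at 0 in every library. Of the 7, 4 were lower in M1, 0 higher and 3 not called with either drug, with medians of -1.15 and -0.77, where 20.5% of all tested genes were called lower with vehicle and 20.9% with ISRIB. Lower calls were also made in other lists, and no test sets this list apart from them. Apoe, the lipid carrier, held 313, 287 and 206 counts in vehicle M0, 72, 85 and 118 in vehicle M1, 222, 333 and 292 in ISRIB M0 and 144, 110 and 146 in ISRIB M1. It fell by 1.15 ± 0.20 (SE) on the log2 scale with vehicle (adjusted p = 4.08e-05) and by 0.77 ± 0.20 with ISRIB (adjusted p = 0.0023). Folr2, a folate receptor of resident macrophages (opposite Gm10602), had 38, 40 and 22 counts in vehicle M0 and 0, 2 and 0 in vehicle M1. With ISRIB it had 14, 18 and 38 counts in M0 and 2, 0 and 3 in M1. It was at least 8.32-fold lower with vehicle (adjusted p = 7.83e-05) and 6.26-fold lower with ISRIB (adjusted p = 0.00142). Igf1, a growth factor, was at least 3.08-fold lower with vehicle (adjusted p = 0.0142) and 4.44-fold with ISRIB (adjusted p = 0.00512), the former lost without vehicle M1 replicate 2 or 3 (adjusted p 0.0508 and 0.0540). Selenop, the selenium carrier (opposite Ccdc152), was at -2.04 ± 0.74 (adjusted p = 0.0269) and -2.11 ± 0.77 (adjusted p = 0.0289). These calls were lost without vehicle M0 replicate 1 or 2 or vehicle M1 replicate 1 or 2 (adjusted p 0.0561 to 0.105), and without ISRIB M0 replicate 2 or ISRIB M1 replicate 1 or 3 (adjusted p 0.0950 to 0.115). The drop of Cd163 on the log2 scale was larger than that of Apoe by several units with either drug. The classical alternative activation markers Mrc1 and Arg1 had at most 5 counts and 1 count in a library and were not tested.

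Of 25 genes of glucocorticoid and IL-10 signalling, the routes known to raise Cd163, 4 were tested and 4 were at 0 in every library. With vehicle 2 were higher in M1, 1 lower and 1 not called, and with ISRIB 1, 1 and 2. The shares over all tested genes were 24.3% higher and 20.5% lower with vehicle, and 23.9% and 20.9% with ISRIB. The medians of this list were 1.79 (1.58 with bounds in place of fitted values) and 0.96. Socs3, a feedback inhibitor of cytokine receptors, was at 0 in each of the 6 M0 libraries. Its counts after stimulation were 8, 11 and 6 with vehicle and 2, 14 and 11 with ISRIB. It was at least 3.69-fold higher with vehicle (adjusted p = 0.00292) and 3.59-fold with ISRIB (adjusted p = 0.00312). Dusp1, a MAP kinase phosphatase induced by glucocorticoids (opposite Ergic1), rose by 2.31 ± 0.60 (SE) with vehicle (adjusted p = 0.00275), and with ISRIB its value was 1.04 ± 0.53 (adjusted p = 0.116). Cebpa, a myeloid transcription factor (opposite Gm45091), had 28, 34 and 18 counts in vehicle M0 and 0, 0 and 2 in vehicle M1, at least 6.65-fold lower (adjusted p = 0.0003), and was at least 4.89-fold lower with ISRIB (adjusted p = 0.000978). The glucocorticoid receptor gene Nr3c1 and Il10 had at most 6 and 2 counts in a library, so neither could be tested.

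The list of CD163 shedding and trafficking held 20 genes, 6 of them tested and 3 at 0 in every library. With vehicle 0 were higher in M1, 1 lower and 5 not called, and with ISRIB 1, 0 and 5, with medians of -0.50 and -0.38. The shares over all tested genes were 24.3% higher and 20.5% lower with vehicle, and 23.9% and 20.9% with ISRIB. Adam17, the protease that sheds CD163 (opposite Iah1), had 156, 163 and 115 counts in vehicle M0 and 73, 70 and 66 in vehicle M1. With ISRIB it had 134, 107 and 158 counts in M0 and 69, 96 and 90 in M1. It was at -0.64 ± 0.22 (SE) with vehicle (adjusted p = 0.0178) and -0.36 with ISRIB (adjusted p = 0.182). Without vehicle M0 replicate 1 or 2 or vehicle M1 replicate 3 the vehicle value was -0.60 to -0.56 (adjusted p 0.0515 to 0.0749). Furin, which processes the ADAM17 precursor (opposite Gm44851), was at 1.22 ± 0.69 with vehicle (adjusted p = 0.156) and 2.02 ± 0.71 with ISRIB (adjusted p = 0.0229). The latter call was lost without ISRIB M0 replicate 1 or ISRIB M1 replicate 1, by limma-voom and with no low-count filter (adjusted p 0.0551 to 0.155). The strand counted is not known for any gene. Of these 6 genes 5 have an opposite-strand overlap, so most of this list rests on counts that an annotated opposite-strand gene could share.

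**Figure D5:**
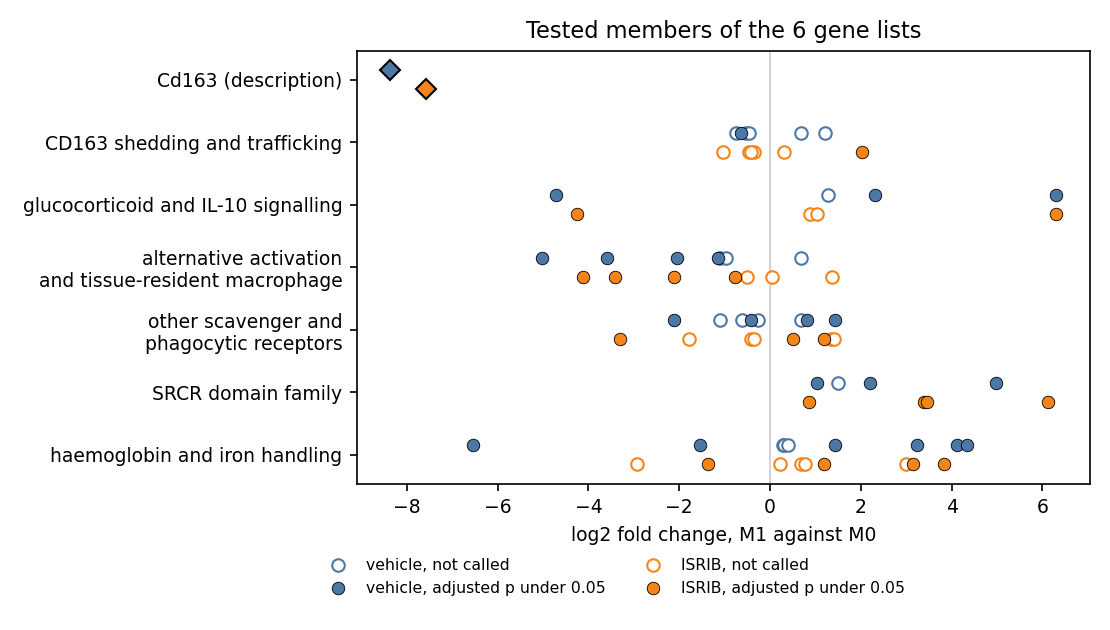
Log2 fold change of M1 against M0 for the 37 tested list genes, by list, with vehicle (blue) and ISRIB (orange), filled where the adjusted p was under 0.05 and open where not; the diamonds give Cd163, with no test. Cd163 lies at -8.37 and -7.58, left of every list gene, whose lowest fitted value is that of Slc40a1 with vehicle, at 0 counts in M1.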

How the data were processed

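Levels of Cd163 were taken from 12 libraries in 4 groups of 3, assigned from the sample titles. The authors deposited whole-number counts per gene symbol, and log2 values, each equal to log2 of 1 plus the size-factor-scaled count. The submitters' processing notes name FastQC, HTSeq, DESeq2 and the build mm10, without roles or settings. Cd163 and all lists were chosen with earlier results of these data known.

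The analysis used edgeR 4.0.16 under R 4.3.3 (TMM; filterByExpr at min.count 10 and min.total.count 15, leaving 2356 genes with 97.6% of counts; a mean per group over all 12 libraries; glmQLFTest). P-values were adjusted by Benjamini-Hochberg over the 2356 genes, with a threshold of 0.05, with a common biological coefficient of variation of 0.275. The code was tested on simulated data. Log2 CPM for levels and permutation tests used a prior count of 2. The floor was 3 counts per library, depth was 439976 to 514037 counts, and a fold is a lower bound where no library, or none beyond the floor, had counts. Each edgeR SE was derived as the absolute log2 fold change over the square root of the quasi-likelihood F. Intervals of fold changes rest on these SEs, and all intervals are at the 95% level.

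Genes named besides Cd163 were the 6 with the highest Pearson r, the 5 with the smallest root mean square difference, the nearest 3 annotated genes on each side and any overlapping, and per list up to 6 members called in M1 against M0, highest mean count first; Gm9920, Ftl1, untested genes and cell type markers were named beyond that rule, after their values were seen. Alternatives were DESeq2 size factors, upper-quartile scaling, DESeq2 1.42.0, limma-voom and limma on the deposited log2 values (limma 3.58.1), other filters, a replicate block, only the compared groups, and leaving out each library.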

Additional observations from a re-analysis of the deposited data

How the results depend on the processing

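Every setting kept the direction of each Cd163 contrast. Over the settings other than leaving out a library, the change of Cd163 was -8.71 to -8.33 with vehicle and -7.70 to -7.52 with ISRIB, and the ISRIB effect was 1.05 to 1.37 in M1, 0.35 to 0.39 in M0, 0.69 to 1.01 for the difference and 0.71 to 0.87 over both states. Leaving out each library in turn gave -9.98 to -7.95, -7.87 to -7.16, 0.75 to 2.77, 0.24 to 0.48, 0.37 to 2.40 and 0.56 to 1.57 in the same order, and no adjusted p of Cd163 for ISRIB passed under any setting, the lowest being 0.273. Counts of genes called moved with a mean of at least 50 counts, which leaves fewer genes (530 with vehicle and 523 with ISRIB). For ISRIB in M0 edgeR called 0 genes, DESeq2 3, limma-voom 1 and no filter 10, with 0 to 4 on leaving out a library. For ISRIB in M1 leaving out a library gave 0 to 1. For the difference no filter gave 9, the replicate block 3, and leaving out a library 0 to 4. The cause was not tested. Library numbers run consecutively within a replicate number, but no label says that a number marks a shared animal, batch or day. The deviations of same-numbered samples had a mean r of 0.0357, 0.0163 and 0.000755 for numbers 1, 2 and 3, so the numbers were not taken as pairs, which does not show that handling was separate. With that number as a block the difference for Cd163 was 0.81 and its ISRIB effects 1.17 in M1 and 0.36 in M0. Of the 6 genes most like Cd163, 3 were also among the top 6 by Spearman's rho and 5 by the deposited log2 values. Depth limits the M1 values, which rest on 1 to 11 counts.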
